A study of Rattus norvegicus with 78 samples.

Results

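Cytosolic ribosomal proteins are the protein subunits of the ribosome that translates messages in the cytoplasm. They were chosen here by name: every gene symbol of the array's annotation that starts with Rpl or Rps and a digit, together with Rpsa, Rplp0, Rplp1 and Rplp2, without the Rps6k kinases and Rps19bp1. The rule found 73 genes among the 14506 genes that have a probe set of their own, and these 73 genes had 261 probe sets. Each gene was read from its probe set of highest mean over all 78 arrays.

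The study asked whether sperm carry transcripts that report damage to the testis after a long, low exposure to 1,2-dibromo-3-chloropropane (DBCP), once used in soil to kill nematodes and known to harm male germ cells. RNA came from sperm released from the punctured cauda epididymis of Fischer 344 rats, and each sample was run on 1 array. The 4 groups were rats given corn oil, the vehicle, and sampled at the end of exposure (20 arrays), rats given DBCP at 5 mg/kg/day for 3 months and sampled at the end (20 arrays), corn oil rats sampled after a recovery period (19 arrays), and DBCP rats sampled after recovery (19 arrays). The labels call the arrays biological replicates and the tissue sperm, whereas the series title names testis. The sources used here give neither the length of recovery nor the age of the rats, so time since dosing, age and any batch that goes with the sampling time cannot be told apart. Values are deposited log2 signals with array medians from 6.55 to 6.75. All 15 late spermatid markers were measured, with group means from 10.22 to 11.01. Markers of other cells were read as well, and 27 leukocyte markers had group means from 8.12 to 8.55.

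The ribosome has a small, 40S subunit, whose head and body hold the message and read its codons, and a large, 60S subunit, which joins amino acids and releases the new chain through an exit tunnel. Messages for ribosomal proteins usually begin with a run of pyrimidines, the terminal oligopyrimidine (TOP) tract, through which growth signals turn their translation up or down together. Mature sperm have lost nearly all of their cytoplasm and translate little, and the transcripts they carry are mostly left over from spermatids.

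The starts of these genes are shown because the TOP tract is the feature they are known to share. Of the 73 genes, 59 matched a promoter window in RefSeq (build GRCr8). A pyrimidine run of at least 8 bases within 20 bases of the annotated start was present in 49 of the 59 (83.1%), against 20.9% of the 27457 promoter windows of all genes. Each stretch below runs from 40 bases before to 20 bases after the annotated start, and capitals mark the longest pyrimidine run near the start. The first 6 genes rose over time in corn oil rats, as described below, and the last 3 did not pass the test there.
Rpl10 (chrX:157205810-157205869, plus strand): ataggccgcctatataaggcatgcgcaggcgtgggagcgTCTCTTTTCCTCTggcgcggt
Rps4x (chrX:71342902-71342961, minus strand): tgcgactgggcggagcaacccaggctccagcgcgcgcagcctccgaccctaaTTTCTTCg
Rpl28 (chr1:78083513-78083572, minus strand): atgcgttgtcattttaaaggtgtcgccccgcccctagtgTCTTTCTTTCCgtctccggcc
Rpl19 (chr10:83519024-83519083, plus strand): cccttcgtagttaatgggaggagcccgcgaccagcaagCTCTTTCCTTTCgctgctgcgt
Rplp1 (chr8:71290853-71290912, minus strand): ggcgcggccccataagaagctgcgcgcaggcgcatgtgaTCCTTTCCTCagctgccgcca
Rps15 (chr7:10068096-10068155, minus strand): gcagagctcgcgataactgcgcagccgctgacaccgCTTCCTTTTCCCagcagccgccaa
Rpl21 (chr12:13386134-13386193, minus strand): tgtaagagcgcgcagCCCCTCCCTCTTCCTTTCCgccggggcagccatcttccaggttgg
Rpl27a (chr1:172974533-172974592, plus strand): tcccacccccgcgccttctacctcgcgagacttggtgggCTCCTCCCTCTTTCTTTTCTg
Rpl7a (chr3:30637096-30637155, plus strand): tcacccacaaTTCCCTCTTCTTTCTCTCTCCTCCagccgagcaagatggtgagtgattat
The runs in these stretches ranged from 7 bases in Rps4x, which is under the minimum, to 24 bases in Rpl7a. Runs in Rpl7a and Rpl21 began at -30 and -25 relative to the annotated start and ended before it. The counts are therefore of runs near the start and not of TOP tracts in the message. Such a run was present in 19 of 25 genes that rose over time in corn oil rats (76%) and in 30 of 34 that did not pass (88.2%). Of 5 other motifs searched on both strands of the 300-base windows, CCGGAAG was in 30.5% of the members' windows and 9.22% of all windows. The motif CTTTCC, which can lie inside a pyrimidine run, was in 50.8% and 26.4%, and AAGATGGC in 8.47% and 3.44%. TATAAA was in 11.9% and 14.3%, and CACGTG in 8.47% and 6.65%. These are matches of letters only.

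The mean log2 level of a member over all arrays ranged from 6.19 for Rps27, a zinc-binding protein of the 40S platform, to 12.02 for Rpl41, the smallest protein of the 60S subunit. Rps29, Rpl32, Rps20 and Rpl28 followed Rpl41, with means of 11.87, 11.54, 11.20 and 11.08, whereas Rpl22l1, Rpl15, Rpl17-ps16 and Rps4y2 lay at 6.42, 6.53, 6.55 and 6.94. Levels of different probe sets depend on their probes, so this order is not an order of transcript number.

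Among corn oil rats, which never received DBCP, many ribosomal protein transcripts were higher once recovery had passed than when exposure ended. By limma, 31 of the 73 genes rose and 1, Rps20, fell at an adjusted p under 0.05, and 41 did not pass. That is 42.5% higher, against 11.5% of all 29214 probe sets called higher, and 1.37% lower, against 12.8% of all probe sets called lower. With replicate numbers 11 to 20 alone, which has fewer arrays, 10 genes rose and 0 fell by limma, against 0.989% and 0.329% of all probe sets, while 26 above 0 and 5 below 0 had an unadjusted p under 0.05. With numbers 1 to 10 alone, which also has fewer arrays, 22 rose and 1 fell, against 8.60% and 7.72%. The members' median log2 difference was 0.13, against -0.04 over all probe sets. Of the 73 differences 58 lay above 0 (79.5%, against 38.4% of all probe sets). The changes were modest, from a log2 difference of -0.20 to 0.79. In no member did the 2 groups of arrays separate fully. Such separation was not counted over all probe sets, so this is a description and not a trait of the members.

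In the body and platform of the 40S subunit, 6 of 15 genes rose over time in corn oil rats. Rps4x, an X-linked core protein of the 40S body, had log2 signals from 9.99 to 11.00 with a median of 10.66 at the end of exposure, and from 10.91 to 11.85 with a median of 11.26 after recovery. The ranges overlapped only between 10.91 and 11.00, and all 19 recovery arrays lay above the mean at the end of exposure. The log2 difference was 0.69 ± 0.12 (SE), a 1.61-fold rise (limma, adjusted p = 1.5e-05).

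Rps6, the ribosomal protein that S6 kinase phosphorylates, ran from 8.66 through a median of 9.11 to 9.38 at the end of exposure and from 8.85 through 9.57 to 10.22 after recovery. Its log2 difference was 0.58 ± 0.12 (adjusted p = 2.4e-04), with 18 of 19 recovery arrays above the earlier mean. Rps2, which lines the entry of the message channel, rose by 0.33 ± 0.05, and Rps3a, Rps24 and Rps13 rose by 0.25, 0.21 and 0.19. Rpsa, also known as the laminin receptor, had medians of 8.52 and 8.59 and a difference of 0.21 ± 0.10 that did not pass (adjusted p = 0.111). Its dimmer probe set ran the other way and passed as lower (-0.18 ± 0.07, adjusted p = 0.0485), so no direction is given for this gene.

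The 40S head gave a mixed picture, with 3 of 11 genes higher and 1 lower. Rps15, which sits near the decoding site, varied widely: it ran from 8.35 through 9.76 to 10.41 at the end of exposure and from 9.17 through 10.00 to 10.75 after recovery. Its difference was 0.47 ± 0.15 (adjusted p = 0.013), and the ranges overlapped over most of their width. Rps16 rose by 0.45 ± 0.09 (adjusted p = 1.13e-04) and Rps29 by 0.42 ± 0.10.

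Rps20, another head protein, was the exception. Its log2 signals lay between 10.96 and 11.74 with a median of 11.24 at the end of exposure and between 10.79 and 11.41 with a median of 11.11 after recovery. Rps20 fell by 0.17 on the log2 scale (SE 0.06, adjusted p = 0.025). Of its 8 probe sets 7 passed as lower, with differences from -0.19 to -0.14. With quantile normalization or median centring of the arrays Rps20 did not pass, whereas 33 and 32 members were then called higher. An unadjusted limma p under 0.05 was then reached by 60.3% and 65.8% of members, against 35.8% and 34.5% of all probe sets. Without corn oil replicate 7 of the end of exposure no member was called lower, and without corn oil replicate 2 of recovery 4 were.

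**Figure D1:**
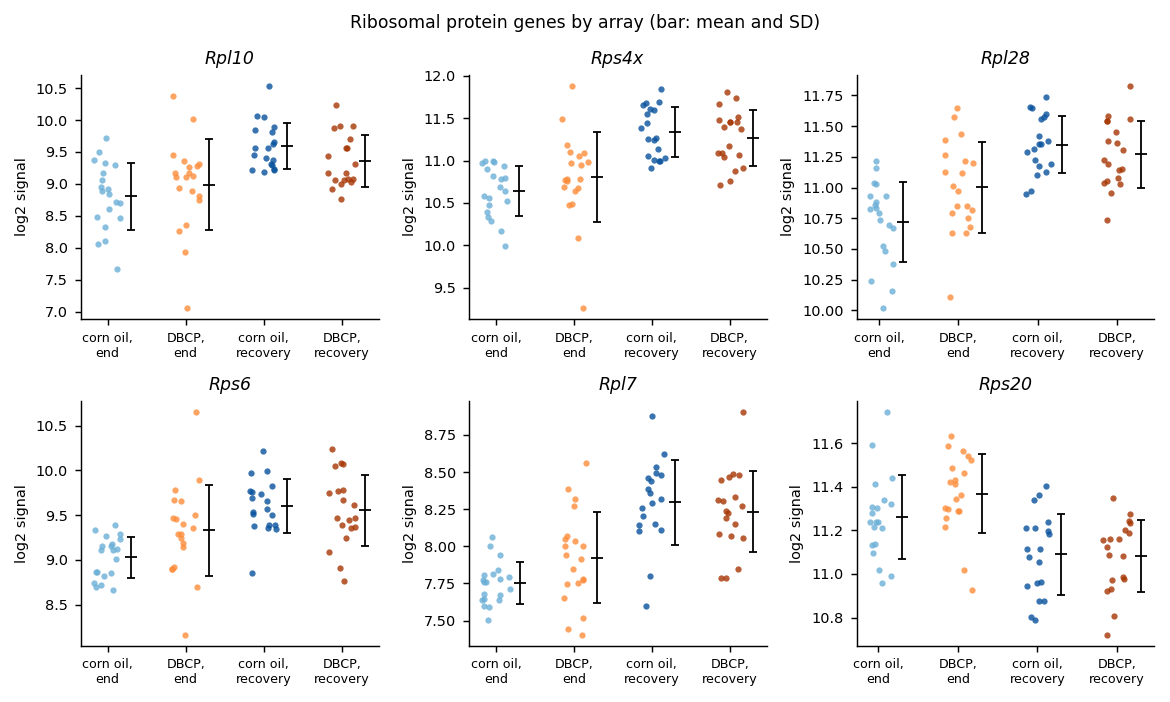
Log2 signal of Rpl10, Rps4x, Rpl28, Rps6, Rpl7 and Rps20 in every array, 1 point per array, in the 4 groups, with the group mean and SD as a black bar beside the points. Rps4x lies between 9.99 and 11.00 in corn oil rats at the end of exposure and between 10.91 and 11.85 after recovery, while Rps20 is lower after recovery.

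On the 60S subunit, the P stalk is the arm that recruits elongation factors, and 2 of its 3 genes rose. Rplp1 ran from 8.33 through a median of 9.05 to 9.40 at the end of exposure and from 8.96 through 9.39 to 10.10 after recovery, a difference of 0.49 ± 0.11 (adjusted p = 4.79e-04). Rplp0, which anchors the stalk, rose by 0.43 ± 0.11, whereas Rplp2, the partner of Rplp1, differed by 0.11 ± 0.09 and did not pass. The other probe set of Rplp0 differed by 0.11 and did not pass either. Both partners of the 5S RNA rose: Rpl5 by 0.34 ± 0.09 and Rpl11 by 0.23 ± 0.07.

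Of the 7 measured proteins in and around the exit tunnel, 5 rose. Rpl19, at the tunnel rim and in a bridge to the 40S subunit, ran from 9.31 through 9.86 to 10.33 at the end of exposure and from 9.99 through 10.31 to 10.82 after recovery. Its difference was 0.52 ± 0.08 (adjusted p = 6.5e-06), and all 19 recovery arrays lay above the earlier mean. Rpl4 (0.43), Rpl17 (0.31), Rpl35 (0.28) and Rpl31 (0.25) also rose, while Rpl39 (0.24) and Rpl23a (0.16) did not pass. The other probe set of Rpl4 differed by 0.16 and did not pass, and 5 of 7 probe sets of Rpl31 passed as higher.

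Of the 30 remaining 60S proteins, 13 rose and 17 did not pass. Rpl10, which joins the 60S subunit last and lies close to the site of peptide bond formation, had the largest difference of the family. It ran from 7.66 through a median of 8.87 to 9.72 at the end of exposure and from 9.18 through 9.56 to 10.54 after recovery. The difference was 0.79 ± 0.16, a 1.73-fold rise (adjusted p = 2.7e-04). Its dimmer probe set rose by 0.22, so the size for this gene depended on the probe set.

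Rpl28 ran from 10.02 through 10.81 to 11.22 at the end and from 10.95 through 11.35 to 11.74 after recovery, a difference of 0.63 ± 0.10 (adjusted p = 2.9e-06). Rpl7 ran from 7.50 through 7.76 to 8.06 at the end and from 7.60 through 8.32 to 8.88 after recovery, a difference of 0.55 ± 0.08 and the smallest adjusted p of the family (1.89e-06). Rpl37a rose by 0.44 ± 0.08 (adjusted p = 9.7e-05). In each of the 3 genes at least 18 of 19 recovery arrays exceeded the mean at the end of exposure, although the ranges overlapped.

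None of the 5 paralogs or annotated copies (Rpl17-ps16, Rpl22l1, Rpl36al1, Rpl37l1 and Rps4y2) passed in corn oil rats, and their differences lay between -0.20 and 0.03. Rpl17-ps16 is annotated as a pseudogene of Rpl17. Over all 73 members, 39 had an unadjusted limma p under 0.05 with a difference above 0 and 4 with a difference below 0, or 58.9% together. Over all probe sets 15.6% passed that level above 0 and 22.3% below 0.

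**Figure D2:**
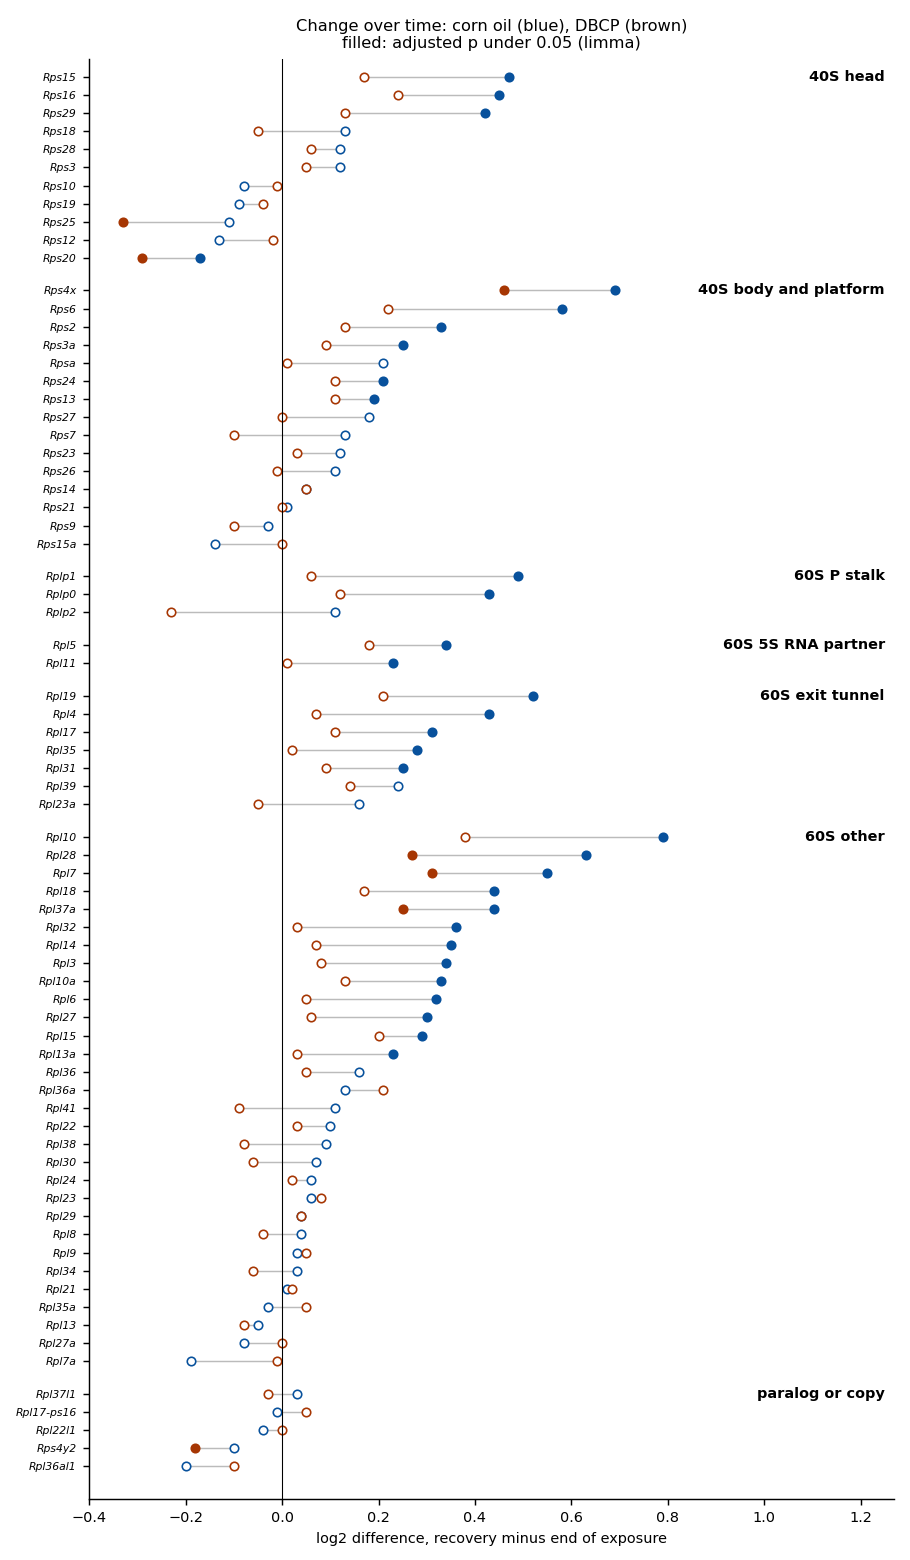
Log2 difference between recovery and end of exposure for each of the 73 genes, grouped by place in the ribosome, in corn oil rats (blue) and DBCP rats (brown); filled points passed at an adjusted p under 0.05. In corn oil rats 31 genes are filled to the right of 0, led by Rpl10 at 0.79; in DBCP rats 4 are.

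Ribosomal protein genes have many near-identical processed copies in the genome, and 55 of the 73 genes had several probe sets, up to 21 for Rpl21. Signals from copies and from the parent gene can be split or mixed by such probe sets, so these genes are less certain. Probe sets of the same gene mostly moved alike: the median range of the corn oil time difference within a gene was 0.06, and no gene had probe sets passing in opposite directions. All probe sets passed as higher in 14 of the 55 genes, some in 7 and none in 34. In 5 genes, Rpl6 and Rpl27 among them, the probe set used passed as higher and another did not. In 2 genes the probe set used did not pass as higher and another did. Of genes with 1 probe set, 12 of 18 rose, with a median difference of 0.28. Of genes with 2 or 3 probe sets 15 of 33 rose, and of genes with 4 or more, 4 of 22 rose, with a median of 0.03. Rpl21, a 60S protein, had medians of 10.68 and 10.67 and differences from -0.05 to 0.06 over its 21 probe sets. Rpl7a had medians of 11.03 and 10.83 and differences from -0.22 to -0.14 over 13 probe sets, 1 of which passed as lower.

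**Figure D3:**
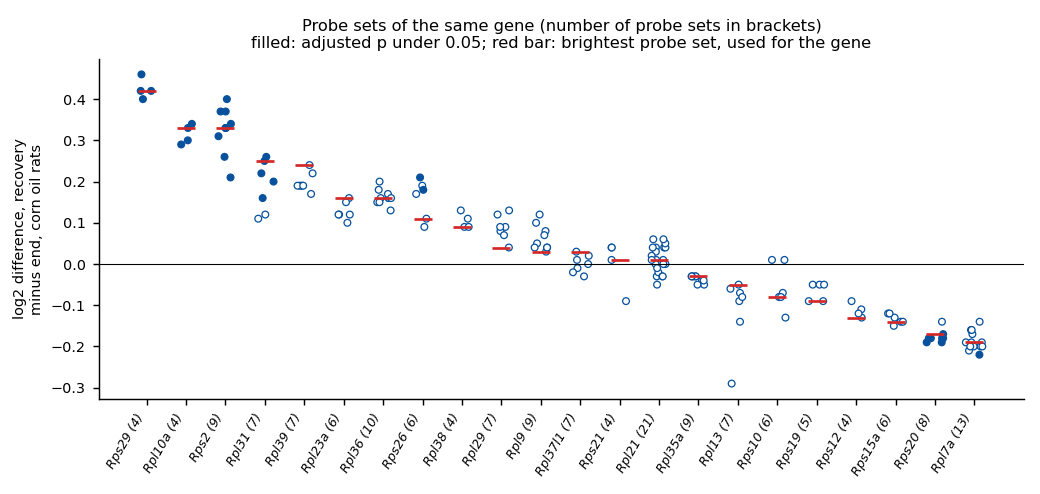
Log2 difference between recovery and end of exposure in corn oil rats for every probe set of the genes with 4 or more probe sets, 1 column per gene with the number of probe sets in brackets; filled points passed at an adjusted p under 0.05 and the red bar is the probe set used. The 21 probe sets of Rpl21 lie between -0.05 and 0.06, those of Rpl7a all below 0.

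The members shared much of their variation between arrays of the same group. After removal of the group means, the first principal component held 51% of the members' variation, against 29.2% over all probe sets, and 61 of 73 members had the same sign on it. The SD within groups had a median of 0.22 over members and 0.19 over all probe sets. It was highest for Rpl10 (0.52), Rps15 (0.47) and Rpl3 (0.39).

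Averaged over the 73 genes, the level per array was 9.02 ± 0.11 (SD, n = 20, 8.75 to 9.17) in corn oil rats at the end of exposure and 9.20 ± 0.14 (n = 19, 9.00 to 9.45) after recovery. In DBCP rats it was 9.10 ± 0.16 (n = 20, 8.74 to 9.44) and 9.15 ± 0.16 (n = 19, 8.90 to 9.50). The group ranges overlapped in every pair. The highest array of all was DBCP recovery replicate 7 (9.50), which also had the lowest array median (6.55) and the lowest limma array weight. Of the 6 arrays with a weight under 0.5, 3 were DBCP arrays at the end of exposure, 1 was a corn oil array after recovery and 2 were DBCP arrays after recovery. Without those 6 arrays the corn oil counts were the same, 31 higher and 1 lower.

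Leukocyte markers and the list of epididymal basal and clear cell markers were mostly higher along with the ribosomal proteins over time in corn oil rats. Late spermatid markers were mostly lower. In corn oil rats 16 of 27 leukocyte markers rose and 2 fell, led by Fcer1g, an Fc receptor chain (0.91 ± 0.12), and Cd74, the invariant chain of class II antigen presentation (0.77 ± 0.10). Their mean level per array was 8.21 ± 0.18 (7.89 to 8.62) at the end of exposure and 8.55 ± 0.21 (8.15 to 9.02) after recovery. Cd79a was not measured. Of 15 late spermatid markers 0 rose and 9 fell, with mean levels of 10.65 ± 0.41 and 10.23 ± 0.27. Of 7 basal and clear cell markers 4 rose and 1 fell. They included Atp6v0d2 (0.87 ± 0.16) and Atp6v1b1 (0.41 ± 0.10), both proton pump subunits, and Foxi1 (0.65 ± 0.14), a transcription factor of such cells. Their mean level was 7.15 ± 0.22 (6.87 to 7.58) at the end of exposure and 7.44 ± 0.19 (6.91 to 7.78) after recovery, and their part in the ribosomal protein differences was not tested. In bulk RNA, fewer cells of a type and less RNA per cell cannot be told apart.

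With the leukocyte level of each array as a covariate, 1 ribosomal protein gene was called higher over time in corn oil rats and 2 were called lower, against 1.48% of all probe sets higher and 0.938% lower. The gene that was still higher was Rpl7 (0.33, adjusted p = 0.0217). The genes called lower were Rps20 (-0.27) and Rps25 (-0.36). Rps4x was then at 0.25 (adjusted p = 0.163), Rps6 at 0.15 and Rpl10 at 0.16, and the members' median was 0.04. With the late spermatid level as covariate, 42 genes were higher and 6 lower, against 17.8% and 31.4% of all probe sets, and Rps4x stood at 0.79. With both covariates 6 were higher and 1 lower, against 2.06% and 2.03% of all probe sets. The leukocyte level itself moved with the sampling time, and in this fit the 2 cannot be fully told apart.

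**Figure D4:**
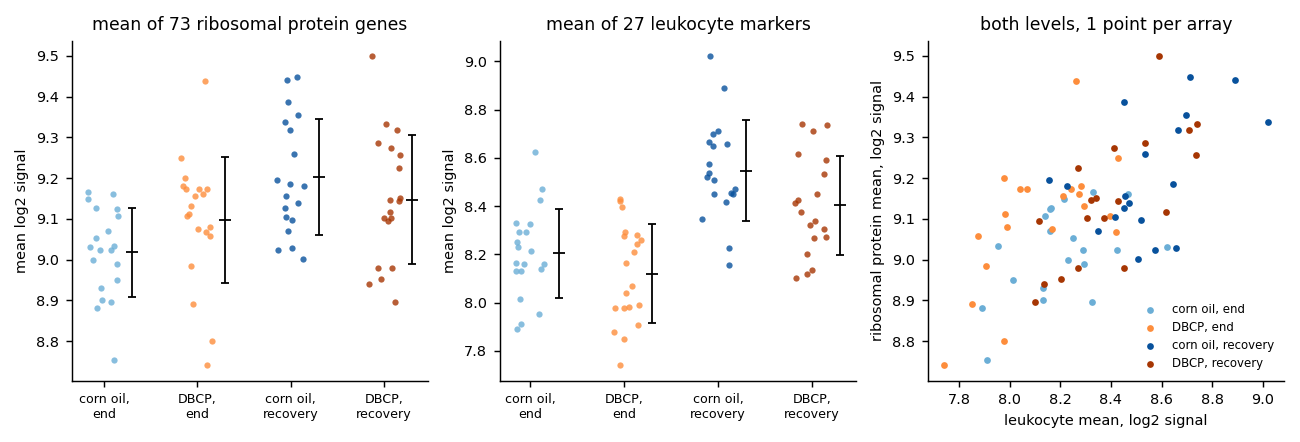
Mean log2 level of the 73 ribosomal protein genes (left) and of 27 leukocyte markers (middle) in every array by group, with mean and SD, and both plotted against each other with 1 point per array (right). Group means of the ribosomal proteins run from 9.02 to 9.20 and of the leukocyte markers from 8.12 to 8.55.

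**Figure D5:**
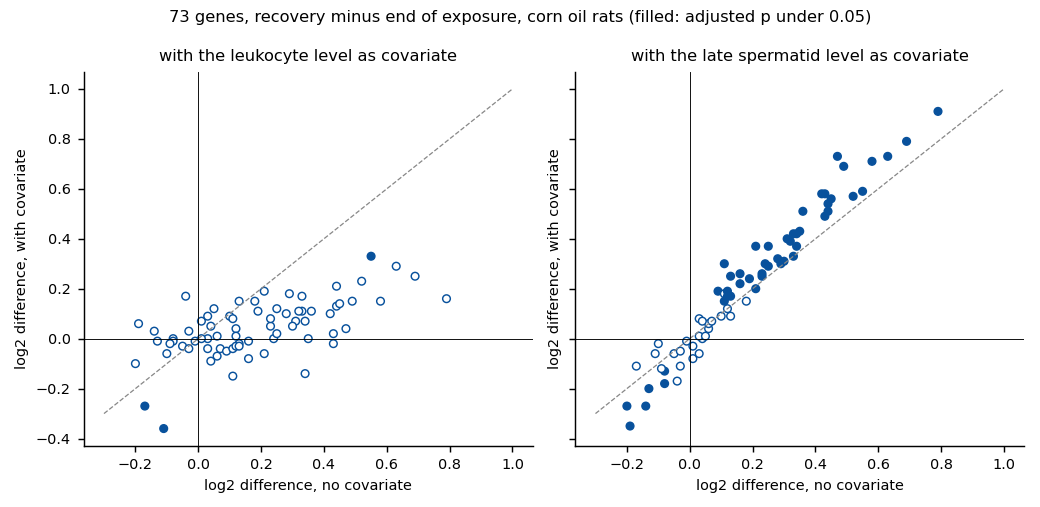
Corn oil time difference of each of the 73 genes without a covariate (x axis, log2) against the same with the leukocyte level (left) or the late spermatid level (right) of each array as covariate (y axis, log2); filled points passed at an adjusted p under 0.05 and the dashed line marks equal values. With the leukocyte level 1 point is filled above 0 and 2 below; with the late spermatid level 42 are filled above 0 and 6 below.

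In DBCP rats, 4 ribosomal protein genes rose and 3 fell between the end of exposure and recovery. These are 5.48% and 4.11% of the members, against 7.28% and 6.19% of all probe sets, so the members' share was near the background. Their median difference was 0.05, against 0.01 over all probe sets. The split of 4 higher and 3 lower depended on the scaling: it was 12 and 3 with quantile normalization and 2 and 3 with median centring. An unadjusted limma p under 0.05 was reached by 37% and 23.3% of members in these 2 settings. Over all probe sets it was reached by 27.8% and 28%. Leukocyte markers rose in these rats too, 17 of 27 higher and 1 lower, with mean levels of 8.12 ± 0.20 and 8.40 ± 0.21, while 13 of 15 late spermatid markers fell.

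The 4 genes that rose were Rps4x (0.46 ± 0.12, adjusted p = 0.00364), Rpl7 (0.31 ± 0.08, adjusted p = 0.00525), Rpl28 (0.27 ± 0.10) and Rpl37a (0.25 ± 0.08), and all 4 had also risen in corn oil rats. Rps4x ran from 9.26 through 10.78 to 11.88 in DBCP rats at the end of exposure and from 10.71 through 11.37 to 11.81 after recovery. The later range thus lay inside the earlier one, and 17 of 19 recovery arrays exceeded the earlier mean. With the leukocyte level as covariate none of the 4 passed, 1 other member (Rpl7a) was called higher and 10 were called lower, against 15.4% and 8.30% of all probe sets.

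The 3 genes that fell were Rps20 (-0.29 ± 0.06, adjusted p = 2.35e-04), Rps25 (-0.33 ± 0.09, adjusted p = 0.00763) and Rps4y2 (-0.18 ± 0.05, adjusted p = 0.0151). Rps20 ran from 10.93 through 11.39 to 11.63 at the end and from 10.72 through 11.12 to 11.35 after recovery, and all 19 recovery arrays lay below the earlier mean. Rps25, a head protein that some viral messages need for initiation, ran from 7.24 through 8.00 to 8.35 and then from 7.04 through 7.57 to 8.12. Rps4y2 is by its symbol a relative of Rps4x, which rose in the same rats.

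The count of genes that rose in DBCP rats was sensitive to single arrays. It was 8 without DBCP replicate 20 of the end of exposure, and 2 without any one of 11 others, which were replicates 3, 4, 7, 8 and 18 of the end of exposure and replicates 7, 8, 9, 15, 18 and 19 of recovery.

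The genes that rose in corn oil rats were all above 0 in DBCP rats too, and in all 31 the DBCP value was the smaller one. They were picked on the corn oil difference, so this count is a description. The test of the difference itself, the interaction of DBCP and recovery, called 0 of the 73 genes by limma and 0% of all probe sets, with a lowest adjusted p of 0.454. At an unadjusted p under 0.05, 20 members passed, all 20 with a negative interaction. That is 27.4% of the members, against 10.9% of all probe sets (5.97% above 0 and 4.88% below 0). The count depended on the scaling and on the replicate numbers. Quantile normalization gave 3 members above 0 and 9 below 0 at that level (16.4%, against 10.2% of all probe sets). Numbers 1 to 10 alone gave 1 member, below 0 (1.37%, against 2.61%). Numbers 11 to 20 alone gave 7 above 0 and 25 below 0 (43.8%, against 15.1%). The members' median was -0.15 against 0.03 over all probe sets. The smallest p-values belonged to Rpl35 (-0.25 ± 0.09), Rpl32 (-0.33 ± 0.11), Rpl6 (-0.27 ± 0.09), Rplp1 (-0.42 ± 0.15) and Rpl19 (-0.32 ± 0.12).

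The comparison the study was built for set DBCP rats against corn oil rats when exposure ended. It called no ribosomal protein gene by limma, 0 of 73, against 0% of all probe sets. The lowest adjusted p was 0.149. The differences leaned one way: 56 of 73 lay above 0 (76.7%, against 38% of all probe sets). Their median was 0.09, against -0.02 over all probe sets. An unadjusted limma p under 0.05 was reached by 14 members (19.2%), all 14 above 0. Over all probe sets 11.6% reached that level, 2020 above 0 (6.91%) and 1366 below 0 (4.68%). The lean of the members depended on the scaling. Quantile normalization gave 8 members above 0 and 6 below 0 at that level (19.2%, against 11.3% of all probe sets). Median centring gave 16 above 0 and 0 below 0 (21.9%, against 11%). Without the arrays of a weight under 0.5 there were 8 above 0 and 0 below 0 (11%, against 4.53%).

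Rpl11, which with Rpl5 and the 5S RNA binds Mdm2 when ribosome assembly is disturbed, had the smallest p. It ran from 9.06 through 9.39 to 9.77 in corn oil rats and from 9.14 through 9.64 to 10.11 in DBCP rats, so most of the ranges overlapped, and 16 of 20 DBCP arrays lay above the corn oil mean. The difference was 0.25 ± 0.07, with an interval of 2 SE on either side from 0.11 to 0.40. Rpl32 differed by 0.25 ± 0.08 (adjusted p = 0.179), Rpl28 by 0.28 ± 0.10 (adjusted p = 0.202), Rps2 by 0.15 ± 0.05 (adjusted p = 0.234) and Rplp2 by 0.24 ± 0.09 (adjusted p = 0.255). The corresponding interval was 0.09 to 0.41 for Rpl32 and 0.09 to 0.47 for Rpl28.

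The size of these differences varied with the set of replicate numbers, a comparison that was not tested. With numbers 1 to 10 alone the members' median was 0.01, and 0 members had an unadjusted p under 0.05, against 3.07% of all probe sets. With numbers 11 to 20 alone the median was 0.17, and 29 members (39.7%) were under 0.05, against 13.4% of all probe sets. Whether these sets were processed apart is not stated in the labels. The leukocyte level was 8.21 ± 0.18 in corn oil rats and 8.12 ± 0.20 in DBCP rats at this time, and the late spermatid level was 10.65 ± 0.41 and 11.01 ± 0.49. The basal and clear cell level was 7.15 ± 0.22 and 7.34 ± 0.21, with unadjusted p under 0.05 for 3 of its 7 markers, all above 0: Foxi1 (0.51 ± 0.14), Atp6v0d2 (0.46 ± 0.16) and Atp6v1b1 (0.30 ± 0.09). All 6 erythrocyte markers lay below 0, 3 of them with an unadjusted p under 0.05, and their level was 8.35 ± 0.29 and 8.16 ± 0.24. None of these markers passed after adjustment, and their part in the members' differences was not tested. With the leukocyte level as covariate, 20 members were called higher and 1, Rpl7a, lower, against 4.86% and 1.82% of all probe sets. Among them were Rpl11 (0.30, adjusted p = 0.00472), Rpl28 (0.37, adjusted p = 0.00328) and Rps6 (0.41, adjusted p = 0.00455). With the late spermatid level as the only covariate, 6 members (8.22%) had an unadjusted limma p under 0.05, all above 0, against 3.06% of all probe sets. With both covariates 0 members were called in either direction by limma, and 24 (32.9%) had an unadjusted p under 0.05, against 7.37% of all probe sets.

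After recovery, DBCP rats did not differ from corn oil rats by limma in any ribosomal protein gene, 0 of 73, against 0% of all probe sets, and the lowest adjusted p was 0.983. Here 58 of 73 differences lay below 0 and 20.5% above 0, against 57.9% of all probe sets above 0. The members' median was -0.05, against 0.01 over all probe sets, and 3 members had an unadjusted limma p under 0.05. Those 3 are 4.11% of the members, against 3.71% of all probe sets, so their share was near the background and their values are given as a description. Rps27 ran from 5.80 through 6.30 to 6.88 in corn oil rats and from 5.67 through 6.14 to 6.54 in DBCP rats, a difference of -0.22 ± 0.07. Rpl6 (-0.17 ± 0.07) and Rpl35 (-0.14 ± 0.06) were the other two. Rplp1 (-0.16 ± 0.11) and Rpl27 (-0.12 ± 0.08) came next. The leukocyte level was also lower in DBCP rats at this time, 8.40 ± 0.21 against 8.55 ± 0.21, and its part in these differences was not tested gene by gene; with it as covariate the members' median was 0.01. The time and DBCP comparisons share groups, so their values are not independent of each other.

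Other genes of the translation machinery were taken from 3 lists. Of 17 genes whose messages carry TOP tracts or whose products sit on the ribosome, 10 rose and 1 fell over time in corn oil rats, with a median of 0.23. These are 58.8% and 5.88%, against the 11.5% and 12.8% of all probe sets given above. Tpt1, a growth-related TOP message (0.50 ± 0.10), Eif3h (0.50 ± 0.10) and Eif3e (0.46 ± 0.09), both subunits of initiation factor 3, rose most. Fau and Rack1, named because their products are themselves 40S components, rose by 0.29 ± 0.08 and 0.33 ± 0.10. Eef1d, a subunit of the exchange factor of elongation factor 1, fell by 0.33 on the log2 scale. In DBCP rats 2 of the 17 rose and 2 fell, 11.8% each against 7.28% and 6.19% of all probe sets, among them Eef1a1 (0.23 ± 0.07), which delivers transfer RNAs, Eef1d (-0.45 ± 0.08) and Eef1g (-0.30 ± 0.08).

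Ribosome assembly factors were taken separately. Of 51 measured genes 10 rose and 5 fell over time in corn oil rats, with a median of 0.03, and 9 rose and 2 fell in DBCP rats. The shares were 19.6% and 9.80% in corn oil rats, against 11.5% and 12.8% of all probe sets, and 17.6% and 3.92% in DBCP rats, against 7.28% and 6.19%. Nucleolin (Ncl, 0.37 ± 0.07 in corn oil and 0.31 ± 0.07 in DBCP rats) and Nop58 (0.28 ± 0.05 and 0.31 ± 0.05), a core protein of snoRNA particles, rose in both. So did Brix1, a 60S assembly factor (0.27 ± 0.09 and 0.42 ± 0.09).

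Of 12 genes that control TOP messages or act on idle and stalled ribosomes, 4 rose and 1 fell in corn oil rats (33.3% and 8.33%), and 2 rose and 2 fell in DBCP rats (16.7% each), beside the same backgrounds. Abce1, which splits ribosomes for reuse, rose by 0.48 ± 0.07 and 0.27 ± 0.07, and Rps6kb1, the kinase of Rps6, by 0.26 ± 0.05 and 0.28 ± 0.05. Habp4, which binds idle ribosomes, differed the other way, by -0.45 ± 0.13 and -0.84 ± 0.13. In both comparisons of DBCP with corn oil 0 genes of the 3 lists passed by limma. At the end of exposure 6 of 17, 2 of 51 and 3 of 12 had an unadjusted p under 0.05, against 11.6% of all probe sets, and after recovery 2, 3 and 0 did, against 3.71%.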

How the data were processed

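The 78 samples were analysed from the authors' deposited series table of log2 values, which holds 29214 probe sets with no gap in any array. The submitters' processing notes name limma, without a version. No step of background correction, normalization or summarisation is described there (not given in the sources used here), and no further scaling was applied. Arrays give no read depth; their number limits the precision. The platform annotation, which can be old, gave 1 symbol to 15310 probe sets, several to 323 and none to 13581; 71 of the 73 genes matched the RefSeq table by Entrez identifier.

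With limma 3.58.1 (R 4.3.3), 1 linear model with a mean for each group was fitted to the values of the 78 arrays (lmFit, contrasts.fit, eBayes). The Benjamini-Hochberg adjustment ran over the full set of probe sets, and an adjusted p under 0.05 passed. The fit was also run on simulated data with independent noise for each probe set. Those data lack the variation that probe sets share in the real arrays, so that run gives no error rate for them. P-values measure the spread between samples that the labels call biological replicates.

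The genes, the lists and the alternatives were chosen with earlier results of these data known. In each comparison, the text names the 10 passing members of largest difference, or the 5 of smallest p where fewer than 10 passed together with those that passed. It also names the 5 brightest and 5 dimmest members, the P stalk genes, Rpsa, paralogs and copies, and up to 3 passing genes of each list, with other members added where a group is described. Marker lists covered late spermatids, leukocytes, erythrocytes, principal cells of the epididymis, its basal and clear cells, and stroma. Over time in corn oil rats the last 4 had 0, 1, 4 and 1 genes higher and 1, 2, 1 and 1 lower, of 6, 11, 7 and 11. In DBCP rats 0, 0, 0 and 2 were higher and 0, 1, 0 and 0 lower. Alternatives covered scaling, probe sets per gene, array weights, the variance prior, the groups in the fit, replicate numbers, marker levels as covariates, a filter on dim probe sets, the threshold and each array left out.

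The labels do not say whether equal replicate numbers mark paired samples, and the correlations given here cannot decide it. Between groups the correlation of same-numbered deviations had medians from -0.08 to 0.06. Between DBCP and corn oil rats when exposure ended, the best match had the same number in 4 of 20 cases. In the other pairs of groups it did in 2 of 18, 1 of 19 and 1 of 19.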

Additional observations from a re-analysis of the deposited data

How the results depend on the processing

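The count of members that rose over time in corn oil rats, 31, stayed within 1.5 times under most settings. It was 10 with replicate numbers 11 to 20 alone, 1 with the leukocyte level as covariate and 6 with both covariates. Numbers 1 to 10 alone also has fewer arrays than the full fit, and its count stayed within 1.5 times. The cause of these changes was not tested. The count lower in corn oil rats, 1, was 0 with quantile normalization, median centring or numbers 11 to 20 alone, 2 with the leukocyte level or the groups of the contrast alone, 3 with array weights or an adjusted p of 0.10, and 6 with the late spermatid level. In DBCP rats the count higher, 4, was 12 with quantile normalization, 11 with numbers 1 to 10 alone, 0 with numbers 11 to 20 alone or both covariates, 1 with the leukocyte level, 21 with the late spermatid level, 9 at an adjusted p of 0.10, and 2 with median centring or the groups alone. The count lower, 3, was 0 and 1 with numbers 1 to 10 and 11 to 20 alone, 10 with the leukocyte level and 1 with both covariates. The background moved with the setting too. In DBCP rats 24.7% of members and 27.1% of all probe sets had an unadjusted limma p under 0.05 in the main fit. With the late spermatid level it was 49.3% and 41.8%, and with numbers 11 to 20 alone 12.3% and 13.2%. With quantile normalization it was 37% and 27.8%, with median centring 23.3% and 28%, and with numbers 1 to 10 alone 32.9% and 25.5%. The shares were 32.9% and 35.7% with the leukocyte level, 11% and 17.2% with both covariates, and 21.9% and 25.3% with the groups alone. These counts therefore describe the settings and are not results about the members. At the end of exposure, 20 members were higher and 1 lower with the leukocyte level, whereas the main fit called 0 and 0 members. With that covariate an unadjusted limma p under 0.05 was reached by 52.1% of members and 27.7% of all probe sets. Leaving out each array gave 30 to 34 higher and 0 to 4 lower in corn oil rats, 2 to 8 higher and 3 to 4 lower in DBCP rats, and 0 for DBCP against corn oil and for the interaction. The members' median then ranged from 0.12 to 0.16 in corn oil and 0.03 to 0.05 in DBCP rats, 0.06 to 0.11 and -0.08 to -0.04 for DBCP at the end and after recovery, and -0.18 to -0.11 for the interaction.

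With the replicate number as a block, 31 members were higher and 1 lower in corn oil rats, and 5 higher and 3 lower in DBCP rats. The block changed no count at an adjusted p under 0.05 by over 1.5 times. For the interaction, 13 members had an unadjusted limma p under 0.05 with the block (17.8%, against 7.61% of all probe sets). Without the block there were 20 (27.4%, against 10.9%). Among single genes, 414 values kept direction and side of the threshold, 52 fell short of it, 5 newly passed and 3 reversed. The reversals were Rplp1 in DBCP against corn oil after recovery with numbers 1 to 10 alone (0.01), Rpl28 over time in DBCP rats with the leukocyte level (-0.01) and Rps4y2 there with both covariates (0.03). Signal over background was not given, so dim probe sets such as Rps27 have no stated detection limit.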
